A study of Mus musculus with 2 samples.

Results

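The cycling wound myeloid cells were 62 of the 2878 filtered cells of the series. A filtered cell had at least 500 genes detected and under 10% of its unique molecular identifiers (UMIs, the molecules counted) from mitochondrial genes. A cell was a member when its raw UMIs of Mki67, Top2a, Birc5, Ube2c, Ccnb2 and Cdk1 together came to 5 or more, so the members were selected on the UMIs of these 6 genes, which are given as a description. The diabetic library held 48 members among 1755 filtered cells of 2214 barcodes. The non-diabetic library held 14 members among 1123 filtered cells of 2026 barcodes.

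Both libraries were 10x Chromium single-cell 3' RNA libraries of monocytes and macrophages from mouse skin wounds, taken on day 6 after injury. The groups were diabetic mice and non-diabetic mice. Each library pooled the cells of 2 mice, and neither the strains nor the model of diabetes are named in the labels. With 1 library per group there was no replicate check, and strain, diabetes and library cannot be told apart. Every interval given is a 95% interval and covers counting error only.

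A dividing cell first licenses its replication origins, then copies its DNA and makes new histones in S phase, and in G2 and mitosis builds a spindle and separates its chromosomes. Wound macrophages are known to come largely from recruited blood monocytes, and tissue macrophages can also divide locally. Osteoclasts, which secrete cathepsin K (Ctsk), the chief collagen-degrading protease of bone resorption, form by fusion of cells of the same monocyte lineage.

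Both libraries together held 6 barcodes found in each, and these touched the members closely. The deep copies of 5 of them were members, and these were the 5 deepest cells of the series, with 150039, 82551 and 75530 UMIs in the diabetic library and 74956 and 70232 UMIs in the non-diabetic library. Their copies in the other library held 512 to 763 UMIs, which was 0.509% to 0.942% of the deep copy. The shallow copy of the cell with 82551 UMIs held 4 Ctsk UMIs and 3 UMIs of the 6 genes, and that of the cell with 74956 UMIs held 32 fibroblast-marker UMIs. Shares, counts over gene lists and the genes named below that these cells decide are given with and without them, except against cells of the same cluster, within the Ctsk-led cluster and for genes compared between the libraries, where they were kept. The members were also deep as a set, with a median of 26538.5 UMIs in the diabetic library and 21613 UMIs in the non-diabetic library, against 16314 and 14079 UMIs over all filtered cells of those libraries. Each member was therefore set against the 4 cells of its own library nearest in total UMIs with 4 or fewer UMIs of the 6 genes. These 192 diabetic and 56 non-diabetic comparison cells had medians of 26562.5 and 21637 UMIs, although 5 diabetic and 2 non-diabetic members were deeper than any other cell of their library. Scrublet, a doublet caller, marked 4 diabetic and 2 non-diabetic cells and 0 members, and no cell was removed; the part of doublets in the deep members was not tested.

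Mki67, which encodes the Ki-67 nuclear protein of proliferating cells, was found in nearly all members. It had at least 1 UMI in 46 of 48 diabetic members and in 14 of 14 non-diabetic members, against 38 of 192 and 9 of 56 comparison cells. The median member held 6 Mki67 UMIs in the diabetic library and 6.5 in the non-diabetic library. Mki67 was also the least selective of the 6 genes, since 18.3% of all filtered diabetic cells and 10.8% of all filtered non-diabetic cells held a UMI of it. In the neutrophil-like cluster, whose mature cells do not divide, 6.25% of 16 diabetic cells held an Mki67 UMI at a median depth of 4820.5 UMIs.

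The other 5 genes marked fewer members. Top2a, the DNA topoisomerase that untangles replicated chromosomes, was found in 18 diabetic and 5 non-diabetic members. Birc5, the survivin subunit of the chromosomal passenger complex, was found in 16 diabetic and 3 non-diabetic members, against 5 of 192 and 0 of 56 comparison cells. Ube2c, the ubiquitin-conjugating enzyme of the anaphase-promoting complex, was found in 12 diabetic and 3 non-diabetic members. Ccnb2, a mitotic cyclin, was found in 14 and 3 members, and Cdk1, the kinase that mitotic cyclins activate, in 16 and 2 members. Birc5 was seen in 2.17% of filtered diabetic cells and 1.25% of filtered non-diabetic cells, far less widely than Mki67. In the neutrophil-like cluster, 6.25% of cells held a UMI of any of these 5 genes.

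Members were not far above the threshold in most cases. The sum over the 6 genes lay between 5 and 9 UMIs in 31 diabetic and 9 non-diabetic members, and was 20 or more in 13 diabetic and 2 non-diabetic members, up to 230 and 290 UMIs. Just inside the threshold, 14 diabetic and 2 non-diabetic cells held exactly 5 UMIs. Just outside it, 19 diabetic and 6 non-diabetic cells held 4.

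**Figure D1:**
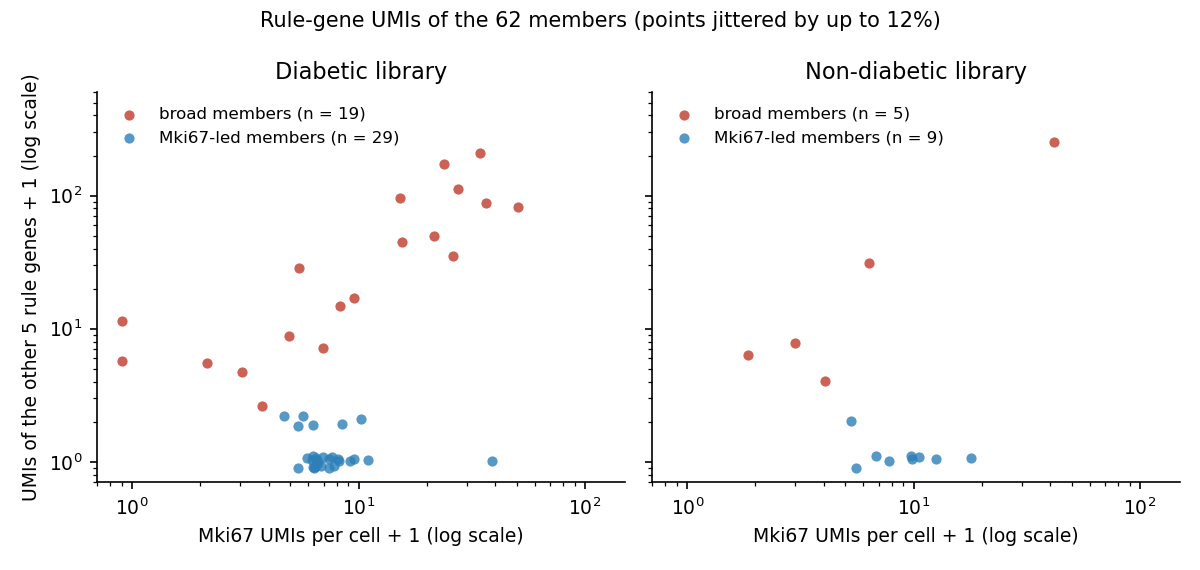
UMIs of Mki67 (x axis, plus 1, log scale) against UMIs of the other 5 genes of the rule (y axis, plus 1, log scale) in each member, diabetic library on the left and non-diabetic library on the right; points are jittered by up to 12%. Mki67-led members (blue, 29 diabetic and 9 non-diabetic) lie along the bottom with at most 1 UMI of the other 5 genes, and broad members (red, 19 and 5) spread upward.

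Upstream sequences are shown for 3 of the 6 genes because genes of late S phase, G2 and mitosis are known for promoters that pair CCAAT boxes with a cell cycle homology region. The windows cover the 250 bases before the annotated start of Mki67 (chr7:135716380-135716629, minus strand), Top2a (chr11:99024190-99024439, minus strand) and Ccnb2 (chr9:70421555-70421804, minus strand), from RefSeq, build GRCm38.p6. Each is printed 5′ to 3′ on the strand of its gene, and capitals mark CCAAT and TTTGAA on either strand, so that each also appears as its reverse complement. The motif CCAAT reads ATTGG on the opposite strand. The motif TTTGAA reads TTCAAA there.
Mki67: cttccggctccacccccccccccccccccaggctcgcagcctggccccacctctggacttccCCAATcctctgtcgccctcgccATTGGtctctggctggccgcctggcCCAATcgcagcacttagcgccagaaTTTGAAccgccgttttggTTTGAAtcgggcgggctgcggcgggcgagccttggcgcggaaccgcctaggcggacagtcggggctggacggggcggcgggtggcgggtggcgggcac
Top2a: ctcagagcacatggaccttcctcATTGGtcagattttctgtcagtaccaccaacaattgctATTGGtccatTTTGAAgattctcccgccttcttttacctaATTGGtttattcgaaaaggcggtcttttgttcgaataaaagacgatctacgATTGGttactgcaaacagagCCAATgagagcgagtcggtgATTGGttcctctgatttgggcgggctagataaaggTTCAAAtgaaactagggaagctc
Ccnb2: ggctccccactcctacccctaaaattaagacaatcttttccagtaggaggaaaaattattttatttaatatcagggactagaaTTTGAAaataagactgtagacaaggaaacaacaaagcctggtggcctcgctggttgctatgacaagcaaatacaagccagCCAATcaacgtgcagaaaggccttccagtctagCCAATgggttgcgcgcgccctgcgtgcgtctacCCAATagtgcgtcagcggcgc
A CCAAT box on either strand stood in the window of 5 of the 6 genes, and both motifs stood in 5 of the 6. Over the 27025 promoters of the RefSeq table, 34.5% held CCAAT, 16.3% held TTTGAA and 5.73% held both. Of the 8114 measured genes with a window, 36.4% held CCAAT, 10.7% held TTTGAA and 4.04% held both. Among the 99 cell cycle genes with a window that were 2-fold or more higher in members, 67.7% held CCAAT, 24.2% held TTTGAA and 21.2% held both. These are letter matches and not binding sites.

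Genes of the cell cycle that the rule did not use were read beside the label, and for most members their medians lay near those of comparison cells. In 38 of the 62 members, 29 diabetic and 9 non-diabetic, the other 5 genes of the rule had at most 1 UMI in all, and 31 of these held Mki67 alone. These Mki67-led members had a median of 4.03 S-phase list UMIs per 10000 UMIs in the diabetic library, against 3.54 in their own comparison cells, and a median of 8.73 G2/M-list UMIs per 10000 against 8.63. In the non-diabetic library these medians were 2.37 against 3.38 and 8.15 against 8.50. The remaining 24 members, 19 diabetic and 5 non-diabetic, had at least 2 UMIs of the other 5 genes and are called broad members here. The split was made after the values had been seen.

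Most broad members of the diabetic library expressed many replication and mitosis genes at once. In the diabetic library their medians were 20.5 S-list and 39.4 G2/M-list UMIs per 10000, against 3.47 and 8.48 in their own comparison cells. They held a median of 31 different S-list genes and 33 different G2/M-list genes, against 8 and 10 in those comparison cells. Their depth was higher too, with a median of 49191 UMIs against 34338.5 UMIs, because the deepest had no equal. In the non-diabetic library the 5 broad members had medians of 4.38 S-list and 13.6 G2/M-list UMIs per 10000, against 3.82 and 8.83, so the difference there was far smaller. The non-diabetic cell of 70232 UMIs reached 90.4 on the G2/M list, while the other 4 lay between 8.27 and 15.01. At least 25 different genes of either list were found in 17 of 24 broad members and 1 of 38 Mki67-led members, against 4 of the 2816 other filtered cells. That Mki67-led exception was a non-diabetic cell of the dendritic-like cluster, and the 4 other cells passed on S-list genes only. S-list UMIs outnumbered G2/M-list UMIs in 7 of the 24 broad members. The broad members were chosen on the other 5 cell cycle genes of the rule, so their higher list counts are a description and no check of the label. Within that limit, the division-gene programme was measured in most diabetic broad members and in few non-diabetic ones. The Mki67-led members are described below by their rule.

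**Figure D2:**
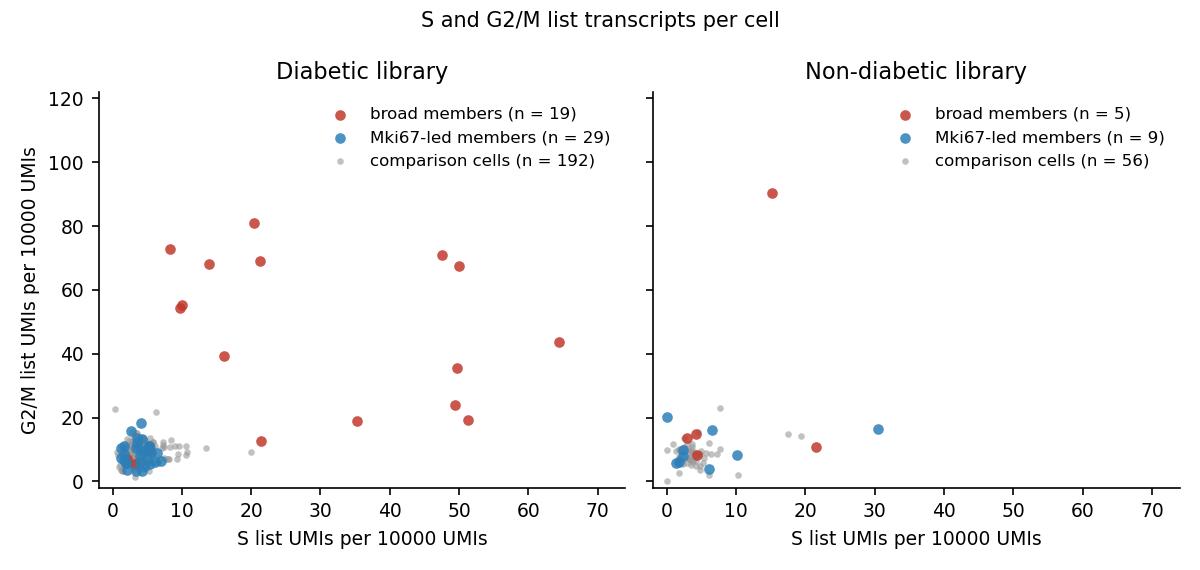
S-list UMIs per 10000 UMIs (x axis) against G2/M-list UMIs per 10000 UMIs (y axis) for each member and comparison cell, diabetic library left and non-diabetic library right. Broad members (red) extend to 64.4 on the S axis and 90.4 on the G2/M axis, while Mki67-led members (blue) lie mostly among the comparison cells (grey), except a non-diabetic one at 30.4 on the S axis.

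Members made up 2.74% of filtered diabetic cells (interval 2.02% to 3.61%) and 1.25% of filtered non-diabetic cells (0.683% to 2.08%). With every cell thinned to 5000 UMIs and membership set at 2 UMIs of the 6 genes, the expected shares were 2.95% of 1661 diabetic cells and 1.52% of 982 non-diabetic cells, with 94 and 141 shallower cells left out. Broad members made up 1.08% of diabetic cells (0.653% to 1.69%) and 0.445% of non-diabetic cells (0.145% to 1.04%), so these intervals overlapped. Thinned to 5000 UMIs, 0.994% of diabetic cells and 0.471% of non-diabetic cells were expected to hold 2 or more UMIs of the 5 genes other than Mki67. Without the barcodes found in both libraries, broad members were 0.913% of diabetic cells and 0.268% of non-diabetic cells. Without the Ctsk-led cluster described next, they were 0.586% of diabetic cells (0.281% to 1.08%) and 0.357% of non-diabetic cells (0.0974% to 0.912%).

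Identity was read from 16 clusters of all filtered cells that were built without any gene of the cell cycle lists. A cluster led by Slc9b2, Dusp9, Ctsk and Atp6v0d2, with 7 of 10 Ctsk and osteoclast markers, is called Ctsk and osteoclast-like; it held 49 diabetic cells and 3 non-diabetic cells. Of the diabetic broad members 9 of 19 fell in it, as did 1 of 5 non-diabetic broad members, and it held 0 Mki67-led members. Members were 18.4% of its diabetic cells (8.76% to 32.0%). The cluster held 18.8% of the 48 diabetic members, and 15.6% of the 45 diabetic members whose barcode occurs in 1 library only. At 5000 UMIs per cell, the expected share with 2 or more UMIs of the 6 genes was 14.1% of its 48 diabetic cells, against 5.53% in the dendritic-like cluster and 0.138% in a classical monocyte-like cluster with Bmx and Cd177 among its leading genes. Only the Ctsk and osteoclast-like cluster passed 6% among diabetic clusters.

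The other broad members were spread over 5 clusters. The dendritic-like cluster, led by Cd7, Sept3 and Klrd1, held 3 diabetic and 1 non-diabetic broad members. A macrophage-like cluster led by Ccl8, Slc40a1, Gas6 and Igf1 held 3 diabetic broad members. These had 5.33, 5.33 and 16.1 S-list and 10.1, 10.7 and 39.4 G2/M-list UMIs per 10000. The comparison cells of the diabetic broad members had medians of 3.47 and 8.48. An unnamed cluster led by Gpr34, Cd79b and Fcrls held 2 diabetic and 1 non-diabetic broad members, and an unnamed cluster led by Fabp4, Cnn3 and Lpl held 2 and 1. The Cd163-led macrophage-like cluster held 1 non-diabetic broad member. The classical monocyte-like cluster with Bmx and Cd177 among its leading genes held 0 members among 133 diabetic and 146 non-diabetic cells. The cluster led by Mpp7 and Raet1e, which carried 3 of 8 classical monocyte markers, held 0 among 5 and 223 cells. Another classical monocyte-like cluster, led by Ifit1bl1 and Ifit3b with 4 of 8 markers, held 0 members among 41 diabetic cells. Among its 103 non-diabetic cells it held 1 member, which was Mki67-led.

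**Figure D3:**
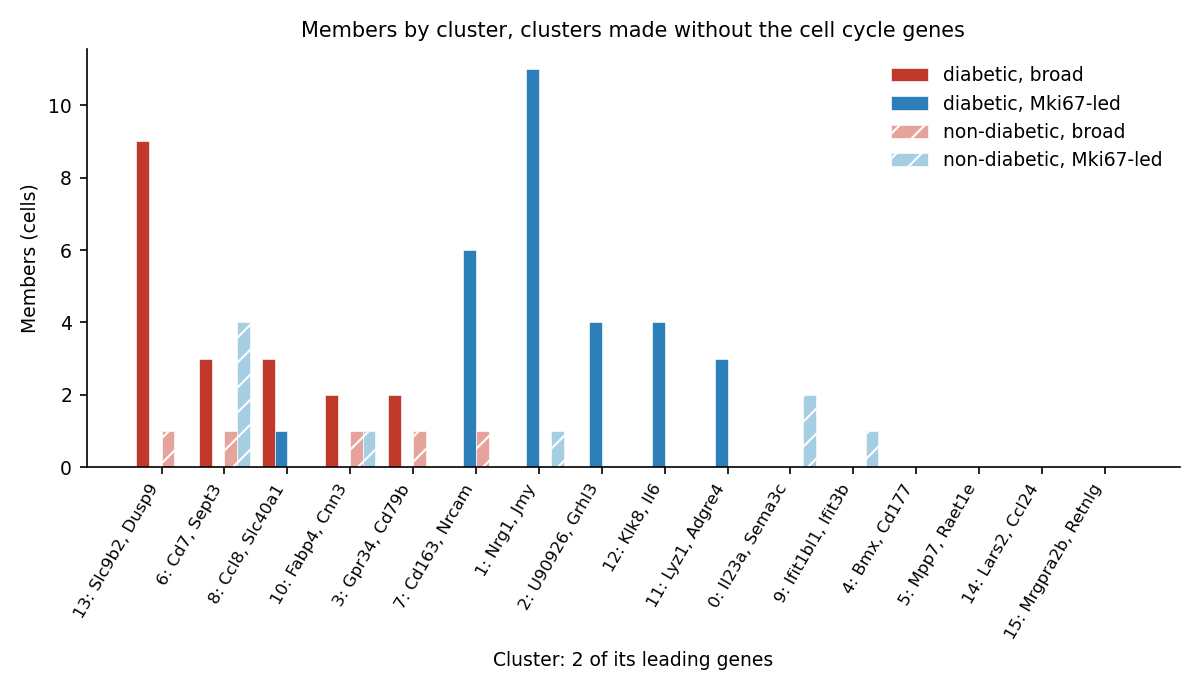
Number of members (y axis, cells) in each cluster (x axis, numbered, with 2 of its leading genes), split into broad (red) and Mki67-led (blue) members of the diabetic library (solid) and non-diabetic library (hatched). The Ctsk and osteoclast-like cluster 13 holds 9 diabetic and 1 non-diabetic broad members and no Mki67-led member, and the cluster led by Nrg1 and Jmy holds the most Mki67-led members, 11 diabetic and 1 non-diabetic.

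The 10 members of the Ctsk and osteoclast-like cluster had a median of 21.4 S-list and 55.5 G2/M-list UMIs per 10000, against 5.14 and 9.77 in the 42 other cells of the cluster. They were not alike, since a diabetic cell of 75530 UMIs had 3.31 and 5.56 and the non-diabetic cell had 2.92 and 13.6. Ctsk UMIs were 863, 480, 429, 307, 198, 156, 0, 0 and 0 in its 9 diabetic members and 208 in its non-diabetic member, so 7 carried Ctsk at a high level and 3 carried none. Acp5, the tartrate-resistant acid phosphatase of osteoclasts, had 3 to 504 UMIs in all 10. Mmp9, a gelatinase of osteoclasts and inflammatory cells, had 1 to 556 UMIs. Atp6v0d2, a proton pump subunit needed for osteoclast fusion, was found in 9 of 10, and the fusion genes Ocstamp and Dcstamp in 6 and 4. Csf1r, the receptor for macrophage colony-stimulating factor, had 11 to 34 UMIs in all 10, and Lyz2, the lysozyme of myeloid cells, 2 to 101 UMIs.

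Among the 42 other cells of that cluster Ctsk was found in 9. The median depth was 62147 UMIs in the 10 members, against 23224 UMIs in those others. The closest cells were the 7 others with 5 or more Ctsk UMIs, set beside the 7 such members. Ctsk came to 5813 CPM (UMIs of the gene per 1000000 UMIs summed over the cells) in those members and 5092 CPM in those others, and Acp5 to 4600 and 3881 CPM. G2/M-list UMIs per 10000 were 67.4 in the members and 9.91 in the others, and S-list UMIs per 10000 were 20.5 and 5.56. The range in the members was 5.56 to 80.8 on the G2/M list, against 7.53 to 13.1 in the others, and the members were deeper, with a median of 66622 UMIs against 45026 UMIs. The 3 diabetic members with 0 Ctsk UMIs had 75 UMIs of the 6 genes at the median, 33 to 42 different S-list genes and 11 to 29 Csf1r UMIs.

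Over the whole series, 42 filtered cells held 5 or more Ctsk UMIs, and 9 of them were broad members. In the diabetic library broad members were 7 of 36 such cells, which is 19.4% (8.19% to 36.0%), against 12 of 1719 cells below that level, 0.698% (0.361% to 1.22%). In the non-diabetic library they were 2 of 6 such cells, against 3 of 1117. Without the shared barcodes they were 5 of 34 such diabetic cells (14.7%, 4.95% to 31.1%), against 11 of 1718, and 1 of 5 such non-diabetic cells, against 2 of 1114. Cells with 5 or more Ctsk UMIs were also deeper, with a median of 33116 UMIs against 16197 UMIs in the diabetic library. At least 1 Ctsk UMI was held by 8 of 19 diabetic broad members and 16 of all 48 diabetic members, against 73 of 192 diabetic comparison cells. Of the non-diabetic cells it was held by 2 of 5 broad members and 3 of all 14 members, against 4 of 56 comparison cells. These comparison cells were matched to all members, and the diabetic broad members were deeper, with a median of 49191 UMIs against 26562.5 UMIs.

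**Figure D4:**
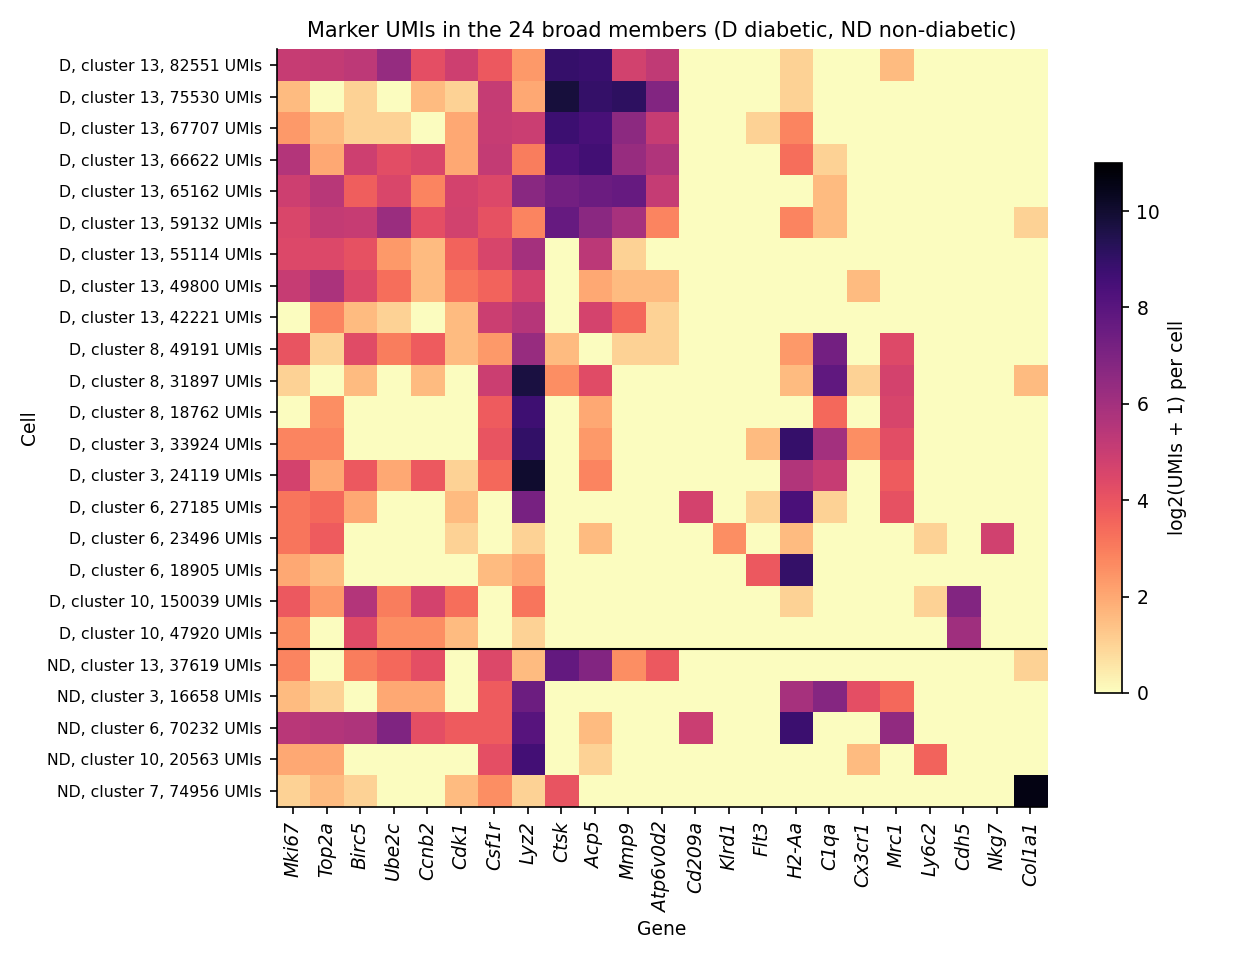
UMIs of the 6 genes of the rule and of 17 identity markers (columns, log2 of UMIs plus 1) in each of the 24 broad members (rows), 19 diabetic above the line and 5 non-diabetic below it. Cells of cluster 13 carry Acp5 with or without Ctsk, and the 4 cells high in Cdh5, Nkg7 or Col1a1 carry little Lyz2.

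The broad members of the other clusters carried separate identities. In the macrophage-like cluster, C1qa, a subunit of complement C1q, had 10, 222 and 155 UMIs and the mannose receptor Mrc1 had 23, 25 and 20 UMIs in the 3 diabetic cells. In the cluster led by Gpr34, the 2 diabetic cells had 62 and 32 C1qa UMIs and the non-diabetic cell had 107, together with 17 UMIs of Cx3cr1, the fractalkine receptor. H2-Aa, an MHC class II chain, was highest in a dendritic-like diabetic cell with 490 UMIs and 14 UMIs of Flt3, the receptor of dendritic cell precursors. Cd209a, a lectin of monocyte-derived dendritic cells, had 25 UMIs in another diabetic cell and 30 UMIs in the non-diabetic cell of that cluster. Ly6c2, the marker of classical monocytes, had 11 UMIs in 1 non-diabetic broad member and at most 1 UMI in every other broad member.

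Of the 24 broad members, 4 held more T and NK, endothelial or fibroblast marker UMIs than pan-myeloid marker UMIs. A diabetic cell of the dendritic-like cluster held 88 T and NK marker UMIs, 27 of them of Nkg7, a granule gene of cytotoxic lymphocytes, against 44 pan-myeloid UMIs. The 2 diabetic broad members of the cluster led by Fabp4 held 178 and 502 endothelial UMIs, with 67 and 116 UMIs of Cdh5, the endothelial cadherin, and 1 and 9 pan-myeloid UMIs. The non-diabetic broad member of the Cd163-led cluster held 3757 fibroblast UMIs, 1521 of them of Col1a1, and 7 pan-myeloid UMIs. The deeper endothelial-marked cell and the fibroblast-marked cell carry barcodes found in both libraries. The other 20, 16 diabetic and 4 non-diabetic, are called broad myeloid members.

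A looser count took cells with 3 or more different markers of a list. By it the members resembled their comparison cells in macrophage and classical monocyte markers, and less so in Ctsk and osteoclast markers. Macrophage markers reached that count in 41 of 48 diabetic members and 11 of 14 non-diabetic members, against 164 of 192 and 38 of 56 comparison cells. Classical monocyte markers did so in 30 diabetic and 11 non-diabetic members, against 138 and 47 comparison cells. Among the diabetic members this split by kind, with classical monocyte markers in 5 of 19 broad members and 25 of 29 Mki67-led members. The non-diabetic members showed no such split, with 4 of 5 broad members and 7 of 9 Mki67-led members. Ctsk and osteoclast markers reached it in 19 of 48 diabetic and 3 of 14 non-diabetic members, against 55 of 192 and 4 of 56 comparison cells. By kind, they did so in 11 of 19 diabetic broad members and 8 of 29 diabetic Mki67-led members. Depth differed here, since the broad members had a median of 49191 UMIs and the 192 comparison cells 26562.5. Its part in the counts was not tested. Dendritic cell markers reached that count in 2 of 48 diabetic and 4 of 14 non-diabetic members, against 2 of 192 and 14 of 56 comparison cells. Neutrophil markers, set beside these as another cell type of the wound, reached it in 10 of 48 diabetic and 0 of 14 non-diabetic members, against 69 and 4 comparison cells.

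The Mki67-led members were spread over 6 clusters in the diabetic library and 5 in the non-diabetic library. In the diabetic library 11 of 29 fell in the cluster led by Nrg1 and Il1rn, 6 in the Cd163-led macrophage-like cluster, 4 in that led by U90926 and Stfa3 and 4 in that led by Klk8 and Il6. In the non-diabetic library 4 of 9 fell in the dendritic-like cluster and 2 in the cluster led by Il23a and Inhba. Mki67 stood at 318.8 CPM in the diabetic Mki67-led members, against 17.5 CPM in their comparison cells. In the non-diabetic library it stood at 456.2 CPM against 14.7 CPM. The rule sets this contrast, so it is a description. Of 8629 genes measured, 55 (0.637%) were 2-fold or more higher in the Mki67-led members in both libraries, and 234 (2.71%) were lower. The cell cycle lists held 4 of the 55, 1 of them a gene of the rule. S100a9, a calcium-binding protein of neutrophils and monocytes, was among the lower genes, with 3.1 CPM in diabetic Mki67-led members against 297.0 CPM, and 5.8 CPM in non-diabetic ones against 195.7 CPM.

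Over all 62 members, 621 of 10323 measured genes (6.02%) were 2-fold or more higher than in comparison cells in both libraries and 190 (1.84%) were lower. A gene was measured with 20 or more UMIs over the members and comparison cells of both libraries. Of the 207 measured genes of the cell cycle lists, 130 were among the higher genes, which the rule makes a description. The median log2 ratio over all measured genes was 0.14 in the diabetic library and 0.10 in the non-diabetic library. TMM scaling moved these medians to -0.10 and -0.07 and the counts to 476 higher and 290 lower, so that 62.1% of called genes were higher, against 76.6% without it. Without the barcodes found in both libraries 238 genes were higher, 64 of them in the cell cycle lists.

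Genes outside the lists that led this comparison came from few cells. Serpinh1, a collagen chaperone, was found in 3 diabetic members and 1 non-diabetic member, and Sparc, a matrix glycoprotein, in 3 and 3. Igfbp7, an endothelial and stromal secreted protein, was found in 2 and 1 members. More widely carried genes were Selenoh, a nuclear selenoprotein, found in 26 of 48 and 7 of 14 members at 129.9 CPM in diabetic members against 36.3 CPM, and 125.3 CPM in non-diabetic members against 29.3 CPM. The lowest outside the lists included Wfdc17, with 619.4 CPM in diabetic members against 3216 CPM and 393.9 CPM in non-diabetic members against 970.9 CPM. Ms4a7, a membrane protein of macrophages, had 86.4 CPM in diabetic members against 194.7 CPM, and 38.4 CPM in non-diabetic members against 103.0 CPM.

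The genes of division were next described in the 20 broad myeloid members. They were compared with 64 diabetic and 16 non-diabetic cells of similar UMIs. Of 8858 measured genes, 560 (6.32%) were 2-fold or more higher in both libraries and 573 (6.47%) lower. Of 194 measured cell cycle genes 120 were among the higher. These 194 include the 6 genes of the rule, all 6 among the higher, so the cell cycle counts are a description. In the non-diabetic library these calls leaned on 1 cell, the dendritic-like cell of 70232 UMIs whose barcode also occurs in the diabetic library, which held nearly as many UMIs as the other 3 together. Without the 3 broad myeloid members of shared barcodes, 45 of 181 measured cell cycle genes were 2-fold or more higher in both libraries, beside 381 of 8473 genes (4.5%), and 518 genes (6.11%) were lower. The diabetic library on its own kept its pattern: 157 of 181 cell cycle genes were higher without those cells, beside 13.1% of all genes, and 166 of 194 with them, beside 13.3%. In the non-diabetic library on its own 48 of 181 were higher without that cell, beside 20.9% of all genes, and 128 of 194 with it, beside 20.7%. Without that cell 51 of those 181 genes were 2-fold or more lower in the non-diabetic library, beside 26.5% of all genes. The 181 include 10 CDK inhibitors and arrest genes, of which 0 were higher and 5 lower there. Of the 120 genes, 38 rested on 3 or fewer UMIs in the non-diabetic members, and 84 were 2-fold or more higher in both libraries when a sum of 0 was set to 3 UMIs.

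Genes of DNA replication were higher in the diabetic broad myeloid members throughout. All 36 measured genes of origin licensing and the replication fork were 2-fold or more higher there, with a median log2 ratio of 2.48 (2.52 with sums of 0 set to 3 UMIs), against 0.10 over all genes. In both libraries 20 were higher, and 9 were without the shared barcodes. Of the 36 in the non-diabetic library without that barcode, 9 were higher and 15 were 2-fold or more lower. Mcm6, a subunit of the replicative helicase, had 149.8 CPM in diabetic members against 27.2 CPM, a log2 ratio of 2.45 (2.003 to 2.931), and 41.4 CPM in non-diabetic members against 6.41 CPM. Gmnn, the licensing inhibitor geminin, had 171.9 CPM in diabetic members against 11.9 CPM, in 15 of 16 cells. Pcna, the sliding clamp of DNA polymerases, had 156.3 CPM in diabetic members against 48.3 CPM, and 55.1 CPM in non-diabetic members against 70.5 CPM. Pclaf, the clamp-associated factor, which stands outside the lists, had 217.5 CPM against 4.83 CPM in the diabetic library and 103.4 CPM against 2.14 CPM in the non-diabetic library, where it had 13.4 CPM without the shared barcode. Of 13 genes of nucleotide synthesis, 6 were higher in both libraries, and 7 without the shared barcodes.

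Of 10 measured replication-dependent histone genes 3 were higher in both libraries, and of 8 recombination and checkpoint genes 5. Without the shared barcodes these counts were 0 of 7 and 0 of 6. Hist1h1b, a linker histone made in S phase, had 308.7 CPM in diabetic members against 2.19 CPM, and 20.7 CPM against 0 in the non-diabetic library. The non-diabetic value came from the cell of the shared barcode, without which the library held 0 UMIs of it.

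Genes of mitosis showed the same split between the libraries. Of 11 measured mitotic cyclins and kinase regulators 9 were 2-fold or more higher in both libraries, of 21 spindle, kinesin and cytokinesis genes 19, and of 15 centromere and passenger genes 13. Without the shared barcodes these counts were 3 of 9, 4 of 18 and 6 of 14, while the diabetic library alone kept 9 of 9, 17 of 18 and 14 of 14. Ccna2, cyclin A, had 99.0 CPM in diabetic members against 0.439 CPM, and 117.2 CPM against 0 in the non-diabetic library, where 1 UMI (13.4 CPM) was left without the shared barcode. Cenpf, a kinetochore protein, had 97.7 CPM in diabetic members and 137.9 CPM in non-diabetic members, and 0 UMIs in the comparison cells of both libraries. Without the shared barcode the non-diabetic members still had 40.1 CPM of Cenpf, though 0 of Ccnb1, cyclin B1. Racgap1, which acts in cytokinesis, had 93.8 CPM in diabetic members against 0.878 CPM, and 117.2 CPM in non-diabetic members against 4.27 CPM. Without the shared barcode the non-diabetic members had 2 Racgap1 UMIs (26.7 CPM), against 6.68 CPM. Cdc20, an activator of the anaphase-promoting complex, had 78.1 CPM in diabetic members against 2.19 CPM.

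Condensin and chromatin genes were higher in both libraries for 18 of 19, and for 7 of 19 without the shared barcodes. H2afz, the histone variant H2A.Z, had 2077 CPM in diabetic members against 514.7 CPM, a log2 ratio of 2.01 (1.90 to 2.12), and 2240 CPM in non-diabetic members against 516.7 CPM, a ratio of 2.11 (1.87 to 2.36). It was found in all 20 broad myeloid members and held at 1496 CPM in the non-diabetic members without the shared barcode. Hmgb2, a chromatin protein of dividing cells, had 702.0 CPM against 115.4 CPM in the diabetic library and 572.1 CPM against 85.4 CPM in the non-diabetic library. Without the shared barcode non-diabetic Hmgb2 was 133.6 CPM against 66.8 CPM, a log2 ratio of 0.97 (-0.26 to 2.16). Tubb5, a beta tubulin, had 1061 CPM against 360.2 CPM, and 875.4 CPM against 324.6 CPM, but 253.9 CPM against 334.2 CPM in the non-diabetic library without the shared barcode.

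Of 10 measured CDK inhibitors and arrest genes 4 were lower in both libraries and 1 higher, and without the shared barcodes 2 were lower and 0 higher. Btg2, an antiproliferative gene, had 43.0 CPM in diabetic members against 241.8 CPM, a log2 ratio of -2.48 (-3.05 to -1.98), and 82.7 CPM in non-diabetic members against 269.1 CPM, a ratio of -1.68 (-2.69 to -0.85). Cdkn1a, which encodes the CDK inhibitor p21, had 140.7 CPM against 314.6 CPM and 82.7 CPM against 661.9 CPM, but its diabetic log2 ratio was -0.17 against cells of the same cluster and -0.94 without the shared barcodes. Mdm2, the ubiquitin ligase of p53, had 44.3 CPM against 99.2 CPM and 41.4 CPM against 155.9 CPM. Among G1 genes, Ccnd1, cyclin D1, had 145.9 CPM against 34.7 CPM and 151.7 CPM against 23.5 CPM, the non-diabetic value coming from the cell of the shared barcode.

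Inflammatory genes were low in the broad myeloid members. Of 12 inflammatory mediators 11 were 2-fold or more lower in both libraries, and 10 of 12 without the shared barcodes. Cxcl3, a neutrophil-attracting chemokine, had 23.4 CPM in diabetic members against 3867 CPM, and 13.8 CPM in non-diabetic members against 2996 CPM. Cxcl2, a related chemokine, had 655.1 CPM against 8838 CPM, a log2 ratio of -3.75 (-3.88 to -3.63), and 1889 CPM against 15598 CPM, a ratio of -3.04 (-3.23 to -2.87). Il1b, the interleukin-1 beta gene, had 416.8 CPM against 3424 CPM and 234.4 CPM against 4751 CPM. Slpi, a secreted protease inhibitor outside the lists, had 18.2 CPM against 2577 CPM and 41.4 CPM against 683.3 CPM. Cd14, the coreceptor for lipopolysaccharide, had 108.1 CPM against 1200 CPM and 275.7 CPM against 1847 CPM.

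Other activation and monocyte genes were low as well. Interferon-induced genes were lower in both libraries for 10 of 11, and for 3 of 7 measured without the shared barcodes. Isg15, a ubiquitin-like protein, had 16.9 CPM in diabetic members against 52.7 CPM and 20.7 CPM in non-diabetic members against 234.9 CPM. Repair and alternative activation genes were lower for 7 of 11, with and without the shared barcodes, among them Spp1, osteopontin, with 74.2 CPM against 2109 CPM and 34.5 CPM against 1689 CPM. Classical monocyte markers were lower for 5 of 8, and for 3 of 8 without the shared barcodes, with Plac8 at 1.30 CPM against 64.5 CPM and 34.5 CPM against 721.7 CPM. Of the 12 macrophage markers 1 was lower and 0 higher, and 0 were lower without the shared barcodes. Csf1r had 372.5 CPM in diabetic members against 448.4 CPM, and 441.2 CPM in non-diabetic members against 286.1 CPM.

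Metabolic and growth genes were higher in part. Of 10 oxidative phosphorylation genes 5 were 2-fold or more higher in both libraries, and 2 without the shared barcodes, with Atp5b, a subunit of ATP synthase, at 1340 CPM against 520.8 CPM and 978.8 CPM against 422.8 CPM. Outside the lists, Cyc1, cytochrome c1, had 420.7 CPM against 137.3 CPM and 282.6 CPM against 89.7 CPM. Tfrc, the transferrin receptor for iron uptake, had 201.9 CPM against 46.9 CPM and 55.1 CPM against 2.14 CPM. Of 10 ribosome biogenesis genes 3 were higher, with and without the shared barcodes, among them Nop58, a nucleolar protein, with 263.1 CPM against 84.2 CPM and 234.4 CPM against 81.1 CPM. Without the shared barcode the non-diabetic log2 ratio of Nop58 was 0.98. Genes named here from outside the lists were chosen after their values had been seen.

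Each broad myeloid member was also set against up to 4 cells of its own cluster and library, 64 diabetic and 14 non-diabetic cells. The members were deeper, with medians of 49495.5 and 29091 UMIs, against 26105.5 and 19969.5 UMIs in these cells. Cluster and depth thus changed together in this comparison, and their parts cannot be told apart. The clusters were also built on the genes outside the cell cycle lists, the inflammatory genes included. The comparison called 267 of 8538 genes higher (3.13%) and 322 lower (3.77%). Spindle genes were higher for 20 of 21, mitotic cyclins and regulators for 9 of 11, and condensin and chromatin genes for 18 of 20. Licensing and fork genes were higher for 10 of 35. Inflammatory mediators were lower for 2 of 11, against 11 of 12 with the cells of similar UMIs, and Cxcl3 stood at 23.4 CPM in the diabetic members, against 50.2 CPM in the diabetic cells of the same clusters. Interferon-induced genes were lower for 2 of 6, against 10 of 11 with the cells of similar UMIs. Repair and alternative activation genes were lower for 3 of 11, against 7 of 11. Oxidative phosphorylation genes were higher for 1 of 10 and ribosome biogenesis genes for 0 of 10. Classical monocyte markers were lower for 4 of 8 and Ctsk and osteoclast markers higher for 5 of 7.

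**Figure D5:**
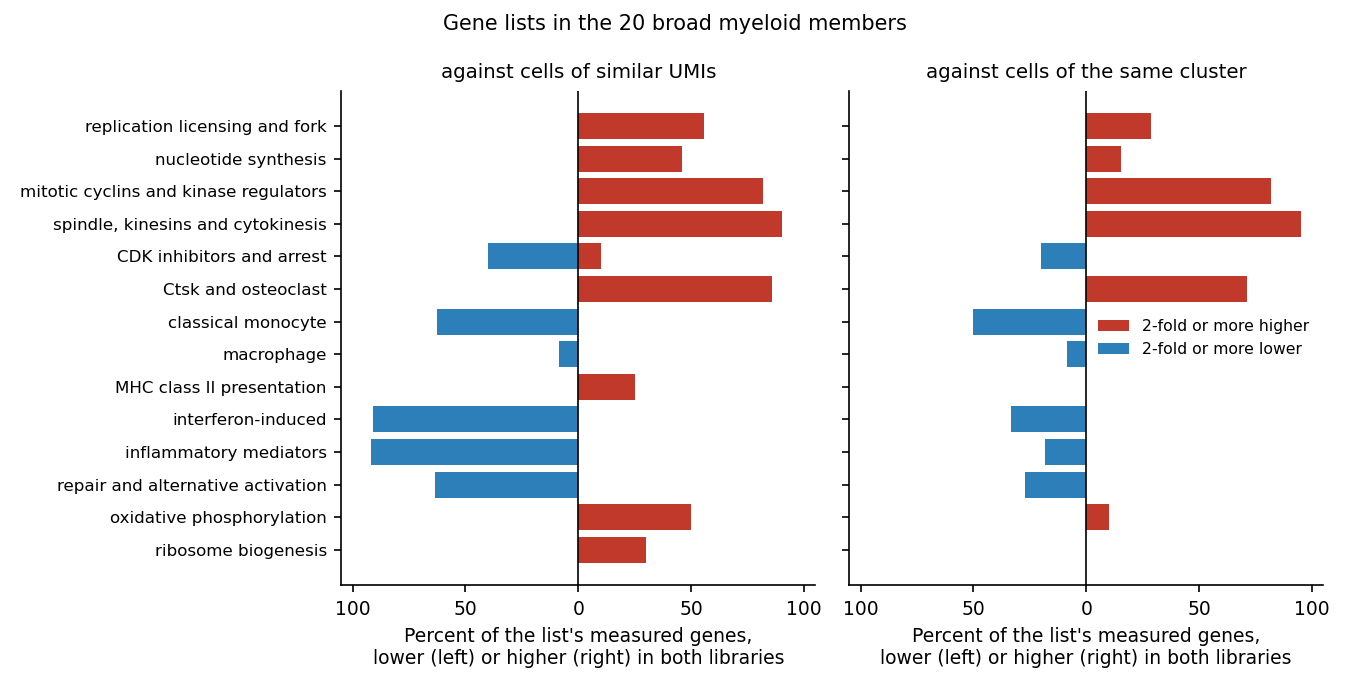
Percent of each list's measured genes that were 2-fold or more higher (red, to the right) or lower (blue, to the left) in both libraries in the 20 broad myeloid members, against cells of similar UMIs (left panel) and cells of the same cluster (right panel). Spindle and mitotic lists stand high in both panels, 19 and 20 of 21 for the spindle list, while 2 of 11 inflammatory mediators are lower in the right panel. The members with shared barcodes are included, and without them 4 of 18 spindle genes were higher against cells of similar UMIs.

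Between the libraries, diabetic members were 2-fold or more higher than non-diabetic members in 1718 of 10323 genes (16.6%) and lower in 1020 (9.88%). Diabetic comparison cells were higher than non-diabetic comparison cells in 1407 genes (13.6%) and lower in 758 (7.34%), so other cells of these libraries also differed widely. S100a8, a calcium-binding protein of neutrophils and monocytes, had 1132 CPM in diabetic members and 5.12 CPM in non-diabetic members, a log2 ratio of 7.66 (5.93 to 10.84), and the ratio in comparison cells was 4.32. The neutrophil markers, S100a8 among them, had a median of 4 UMIs per diabetic member. The highest diabetic members held 1161 and 362 UMIs of these markers. Mmp9 had 653.7 CPM in diabetic members and 12.8 CPM in non-diabetic members. Its log2 ratio was 5.62 (4.45 to 7.30), and the comparison cells gave 7.76. A diabetic cell of the Ctsk and osteoclast-like cluster, with a shared barcode, held 556 Mmp9 UMIs. Diabetic members outside that cluster held at most 11. Tpm3-rs7, a tropomyosin-related sequence that could share reads with Tpm3, had 266.5 CPM in 47 of 48 diabetic members and 5.12 CPM in non-diabetic members. Fabp4, a fatty acid binding protein, had 303.2 CPM in diabetic members and 7.67 CPM in non-diabetic members, a ratio of 5.22 (3.75 to 7.59), against 2.97 in comparison cells. The diabetic broad myeloid members held 6 of the 495 Fabp4 UMIs, and 476 lay in all diabetic broad members, the endothelial-marked ones included.

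The genes lowest in diabetic members came from the non-diabetic fibroblast-marked cell. Col1a1 had 2.45 CPM in diabetic members and 3893 CPM in non-diabetic members, Col3a1 3.06 and 2655 CPM, and Rarres2 0 and 475.7 CPM, with Rarres2 and Col3a1 found in 1 non-diabetic member each. The 8 measured genes of MHC class II presentation were all 2-fold or more lower in diabetic members, with a median log2 ratio of -2.08, and the comparison cells gave the same median. Interferon-induced genes were lower in 8 of 12, with a median of -1.93 in members and -2.13 in comparison cells. The rule genes, on which the members were selected, had a median log2 ratio of -0.07 between diabetic and non-diabetic members. The non-diabetic cell of 70232 UMIs, with a shared barcode, held 290 UMIs of them, against a median of 8.5 over the non-diabetic members. Each difference between the libraries rests on 1 library of pooled cells per group.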

How the data were processed

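Single-cell RNA data were analysed from 1 diabetic and 1 non-diabetic library, grouped by the disease state in the labels, each pooled from 2 mice. The deposited files are matrices of UMI counts, unnormalized, made per the file headers with Cell Ranger software version 3.0.2, and the submitters' processing notes name mm10. The annotation release is not given in the sources used here. Of 31053 genes listed, 71 entries share a symbol and were not matched to lists. The libraries held 31730014 diabetic and 17559986 non-diabetic UMIs.

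Filtered cells were clustered with scanpy 1.11.5 and leidenalg 0.10.2 under Python 3.11.15, without the genes of the cell cycle lists, on 2000 variable genes, 30 principal components and 15 neighbours at resolution 1. A cluster took the name of a marker list when at least 3 markers and 50% of the list were 2-fold or more over other cells, in at least 10% of its cells. UMIs were summed per library and cell set and divided by the sum to give CPM. Log2 ratios used 0.5 UMIs shared in proportion to both totals, and a gene was called at 2-fold or more in both libraries. Shares have exact Clopper-Pearson intervals and ratios exact conditional intervals. Both cover counting error only. The ratio calculation was tested on simulated data. TMM factors came from edgeR 4.0.16 under R 4.3.3 as an alternative scaling only.

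Named genes were the 6 rule genes, up to 4 members of each list with the highest CPM in members, the 12 highest and 12 lowest outside the lists at 50 CPM or more, the 8 highest and 8 lowest between the libraries at 200 CPM or more, and fixed identity genes; others are said to be chosen after their values were seen. Some genes are not reported here. The members and lists were chosen with earlier results of these data known.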

Additional observations from a re-analysis of the deposited data

Results flagged for a closer look

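Of the named genes, 5 differed between members and comparison cells in opposite directions in the libraries, and the difference between the libraries was not tested. Ccr7, the chemokine receptor of migrating dendritic cells, had a log2 ratio of 3.40 in the diabetic library, where 1 member carried it, and of -3.01 in the non-diabetic library, where 2 members carried it. Flt3 had a log2 ratio of 2.06 in the diabetic library and -1.49 in the non-diabetic library, with 4 member cells in each. A diabetic cell held 14 Flt3 UMIs, and every other member with Flt3 held 1 to 3. Dcn, the fibroblast proteoglycan decorin, had -3.19 in the diabetic library and 9.58 in the non-diabetic library, where the fibroblast-marked cell is a member. Saa3, an acute-phase protein, had -2.28 in the diabetic library (5424 CPM in members against 26339 CPM) and 3.24 in the non-diabetic library (1581 CPM against 167.1 CPM, in 6 members). Cx3cr1 had -1.89 in the diabetic library and 1.17 in the non-diabetic library, with 6 member cells in each. A non-diabetic cell held 17 Cx3cr1 UMIs, and every other member with Cx3cr1 held 1 to 5.

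Outside the cell filter, 6 of 903 non-diabetic barcodes held 5 or more UMIs of the 6 genes, against 0 of 459 diabetic barcodes. All 6 had 10% or more mitochondrial UMIs, and 3 of them had 2 or more UMIs of the 5 genes other than Mki67.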

How the results depend on the processing

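Of 130 alternative values of 16 summary results 98 stayed within their limits, and of 1030 values of 74 named genes 780 did. The cause of the changes was not tested. The 621 genes higher in both libraries became 410 with the mean of per-cell CPM, 945 with no UMI minimum, 219 with a minimum of 100, 1101 against all other filtered cells, 238 without shared barcodes and 341 without cells of other lineages. The 190 lower genes became 399 for members with 10 or more UMIs of the 6 genes, 290 under TMM scaling, 583 with no minimum, 86 with a minimum of 100, 90 with 1 nearest cell, 713 against all other cells and 110 against the same cluster. The 130 cell cycle genes became 60 with a minimum of 100 and 64 without shared barcodes. The 10 lower genes of the cell state lists became 28 for members with 10 or more UMIs, 6 with a minimum of 100 and 6 against the same cluster. Between libraries, 3707 genes were higher and 1951 lower in diabetic members with no minimum, and 753 and 473 with a minimum of 100. The diabetic share of members was 3.82%, 1.94% and 0.969% at 4, 6 and 10 or more UMIs, and the non-diabetic share was 0.445% at 10. At 10 or more UMIs 47.1% of diabetic members lay in the Ctsk-led cluster, 58.8% had 3 Ctsk and osteoclast markers, and their medians were 21.3 S-list and 43.5 G2/M-list UMIs per 10000. With 2 different markers 75% of diabetic members passed, and thinning to 5000 UMIs gave a median of 4 S-list UMIs per 10000. Without cells of other lineages Nedd4 reversed to -1.05, Igfbp7 to -1.83 and Col4a1 to -1.19 (smaller log2 ratio of the libraries). The comparisons without shared barcodes, without other lineages and against the same cluster were chosen after seeing the data. No paired analysis was possible because each group had 1 library, and no replicate could be left out. Members numbered 14 in the non-diabetic library, which limits every value there.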
